A study of Mus musculus with 8 samples.

Results

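The 9 genes described here encode regulators of apoptosis and necroptosis. Bax, Bak1, Bbc3, Bcl2l11, Bcl2l1 and Mcl1 belong to the BCL2 family, and Ripk1, Ripk3 and Mlkl form the core of the necroptosis pathway. The 9 genes were chosen by symbol, through the GENCODE M21 annotation of the mouse build GRCm38, from a table of gene-level counts of mouse liver RNA with 23006 Ensembl identifiers. Each of the 9 symbols matched 1 identifier, and each gene passed the filter on low counts with 16876 genes in all. The 4 genes called in one comparison or another are Bak1 (ENSMUSG00000057789, chromosome 17 from 27019810 to 27029009), Bcl2l1 (ENSMUSG00000007659, chromosome 2 from 152780668 to 152831728), Bax (ENSMUSG00000003873, chromosome 7 from 45461697 to 45466898) and Ripk3 (ENSMUSG00000022221, chromosome 14 from 55784995 to 55788865), all protein-coding and on the minus strand.

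Livers of wild-type mice (labelled WT) were compared in 4 groups of 2 libraries each. The SLIT2+APAP group was given the secreted ROBO receptor ligand SLIT2, by injection into the peritoneum at 2 µg per mouse over 3 days, and acetaminophen (APAP) at 400 mg/kg. The APAP group received phosphate-buffered saline and the same dose of APAP. The SLIT2 group received SLIT2 alone, and the control group phosphate-buffered saline alone. Mice of the APAP groups were killed 24 h after APAP. The sources used here give no sex, strain or age, and do not state that each library is a mouse of its own. The p-values therefore test a group difference against the spread between these libraries, shared over the 4 groups, and that spread may be technical.

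In mitochondrial apoptosis, BAX and BAK open pores in the outer mitochondrial membrane, and cytochrome c escapes and activates caspases. Anti-apoptotic members such as BCL-XL (from Bcl2l1) and MCL1 hold the pore formers in check, and BH3-only proteins such as PUMA (from Bbc3) and BIM (from Bcl2l11) counteract that restraint. In necroptosis, the kinases RIPK1 and RIPK3 assemble below death receptors, and RIPK3 phosphorylates MLKL, which then ruptures the plasma membrane. The dying hepatocytes of an APAP overdose are known for mitochondrial injury and necrosis. BCL-XL and MCL1 are known to be needed for hepatocyte survival in mice, and healthy hepatocytes are known for little or no RIPK3.

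Total counts ran from 60.8 to 100.5 M per library (1 M is 1000000 counts). The 13 mitochondrially encoded genes took 60.2% and 69% of the counts in the SLIT2 libraries, against 13.4% to 30.3% in the other libraries, and the SLIT2 libraries stood apart on the first principal component. Counts outside those genes were 25.1 and 18.9 M in the SLIT2 libraries, against 55.2 to 85.8 M in the others. The summed abundance of 12 hepatocyte markers was 85000 and 80000 counts per 1000000 (CPM, on TMM-scaled library sizes) in SLIT2+APAP, 133000 and 109000 CPM in APAP, 18400 and 10100 CPM in SLIT2, and 71400 and 94600 CPM in control, with no marker at 0. The 7 skeletal muscle markers summed to at most 3.07 CPM in any treated library, against 845 and 92.3 CPM in the control libraries. The APAP libraries, numbered 3 and 4 in the labels, differed from each other more than the libraries of any other group, with a median absolute log2 difference of 0.601, while it was 0.219 between the SLIT2+APAP libraries, 0.36 between the SLIT2 libraries and 0.215 between the control libraries.

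The 250 bases upstream of the start that RefSeq annotates are shown for 4 genes on which the results turn. Bax and Bak1, which encode the pore formers, differed in how they stood in the APAP libraries. Bcl2l11 and Ripk1, one from each pathway, had the most similar patterns of any pair among the 9. The sequences are those of RefSeq on GRCm38.p6, read 5′ to 3′ toward the start, and 9 of 9 genes matched that table with 15 windows in all.
Bak1 (chr17:27028628-27028877, minus strand): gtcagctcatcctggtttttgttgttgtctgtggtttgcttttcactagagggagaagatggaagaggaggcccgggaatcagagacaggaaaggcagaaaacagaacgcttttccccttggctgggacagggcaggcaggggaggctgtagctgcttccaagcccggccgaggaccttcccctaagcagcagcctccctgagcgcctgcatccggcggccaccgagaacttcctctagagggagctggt
Bax (chr7:45466899-45467148, minus strand): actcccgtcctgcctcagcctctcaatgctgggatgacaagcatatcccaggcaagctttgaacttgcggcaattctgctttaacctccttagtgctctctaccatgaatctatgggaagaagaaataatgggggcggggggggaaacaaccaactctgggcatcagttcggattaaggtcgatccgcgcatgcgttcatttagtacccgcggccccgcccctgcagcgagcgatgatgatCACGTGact
Bcl2l11 (chr2:128125788-128126037, plus strand): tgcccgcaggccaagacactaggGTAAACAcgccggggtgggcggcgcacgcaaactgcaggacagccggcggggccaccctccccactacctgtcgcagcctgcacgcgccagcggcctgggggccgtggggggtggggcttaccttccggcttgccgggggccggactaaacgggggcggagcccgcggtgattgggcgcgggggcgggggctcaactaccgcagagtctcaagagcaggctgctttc
Ripk1 (chr13:34002113-34002362, plus strand): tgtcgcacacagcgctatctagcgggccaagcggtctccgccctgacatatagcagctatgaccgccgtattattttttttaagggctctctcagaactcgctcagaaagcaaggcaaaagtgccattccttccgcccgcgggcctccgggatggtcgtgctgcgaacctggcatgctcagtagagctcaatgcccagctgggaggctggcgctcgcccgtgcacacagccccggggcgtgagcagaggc
Capitals mark an E-box in Bax, which begins at position -9 from the start, and a FOXO motif in Bcl2l11, which begins at position -227. Both strands were searched for the E-box CACGTG, the FOXO motif GTAAACA, the AP-1 motif TGANTCA, the cAMP response element TGACGTCA and the GC box GGGCGG. Of 32851 windows of the same length, 6.02% held the E-box, 3.17% the FOXO motif, 6.75% the AP-1 motif, 1.55% the cAMP response element and 32.7% the GC box. GC boxes are left in lower case; Bax holds 2 of them, Bcl2l11 holds 3, Ripk1 holds 2 and Bak1 none. In the Bak1 window none of the 5 motifs was found, and in the Ripk1 window only GC boxes. Among the windows not printed, an E-box lies in that of Ripk3 at position -61 and in the third of Bbc3 at position -64, and a FOXO motif in the second of Bbc3 at position -167. These matches describe letters only.

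Levels of different genes were compared per kilobase of exon (CPM per kb). In control livers Mcl1 had the highest level, 17.8 ± 1.34 CPM per kb (SD, n = 2), followed by Bax at 13 ± 0.14 and Bcl2l1 at 4.39 ± 0.244 CPM per kb. Bbc3 at 2.49 ± 1.1 and Bak1 at 2.15 ± 0.0883 CPM per kb overlapped, and changed places between the 2 control libraries. Ripk1 followed at 1.44 ± 0.0816, Mlkl at 1.13 ± 0.177, Bcl2l11 at 0.412 ± 0.0688 and Ripk3 at 0.168 ± 0.061 CPM per kb. Apart from Bbc3 and Bak1, neighbours in this order did not overlap between the control libraries. Mcl1 held the first place and Ripk3 the last in all 8 libraries.

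The order changed most in the library APAP 3. There Bcl2l1, at 17.1 CPM per kb, stood above Bax, and Ripk1 stood above Bak1, while in APAP 4 the first 3 places were those of control. Across the 8 libraries Bax had the narrowest range as a ratio, from 7.97 CPM per kb in SLIT2 2 to 13.9 CPM per kb in APAP 4. Bcl2l11 had the widest among the genes detected in every library, from 0.314 CPM per kb in SLIT2 1 to 2.56 CPM per kb in APAP 3, an 8.15-fold span.

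**Figure D1:**
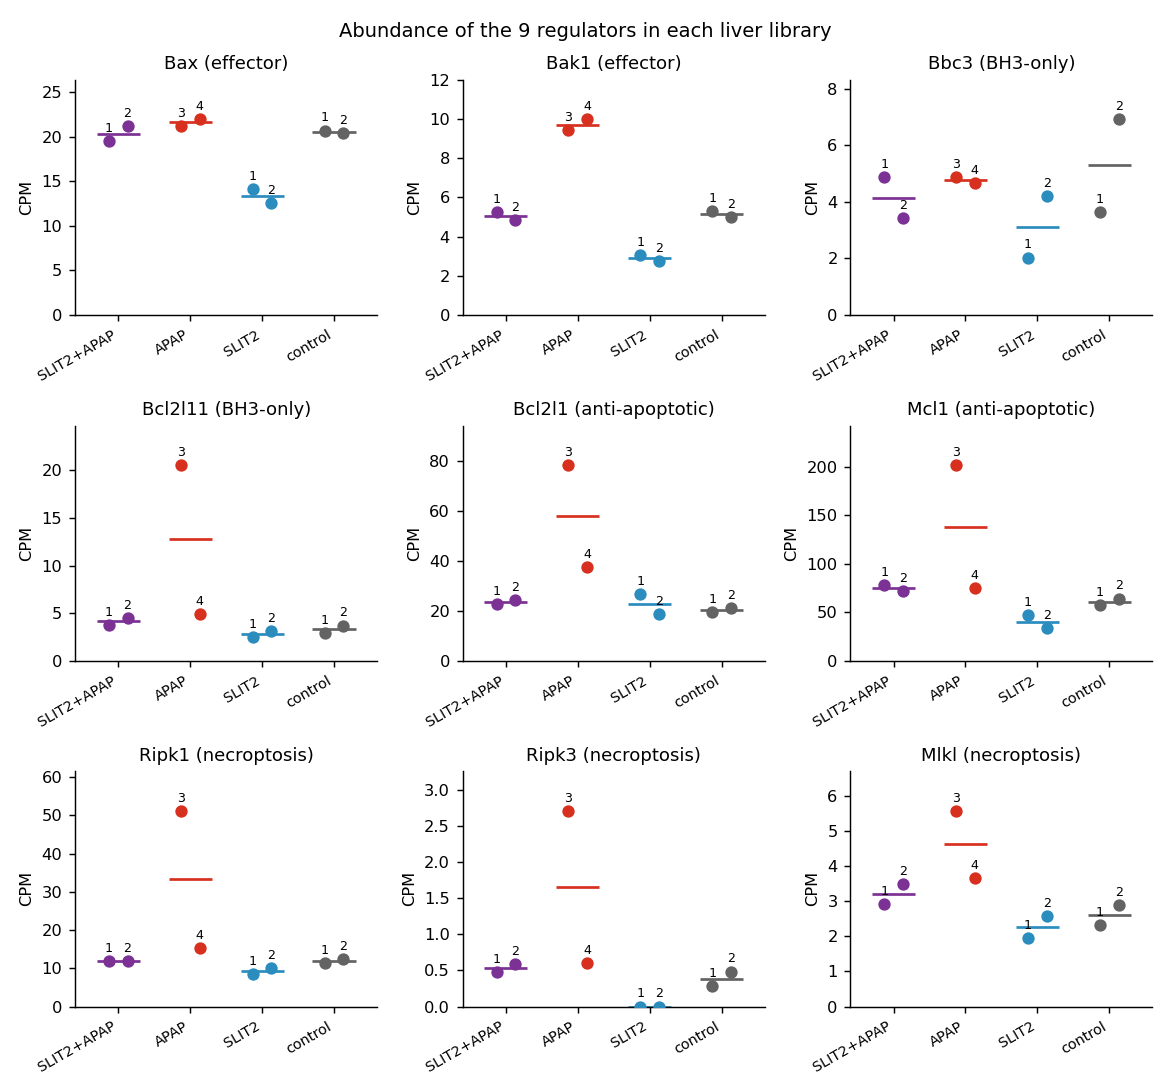
Abundance of the 9 regulators (CPM on TMM-scaled library sizes, linear axes from 0) in the 8 liver libraries. Points are libraries with their label numbers and bars are means of 2 libraries. APAP 3 is far above every other library for Bcl2l11, Bcl2l1, Mcl1, Ripk1 and Ripk3, whereas Bak1 stands at 9.43 and 10 CPM in APAP 3 and APAP 4, and Ripk3 has no count in SLIT2.

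SLIT2+APAP against APAP asks how livers pretreated with SLIT2 differed after the same toxic dose. Bak1, which encodes a pore former, and Bcl2l1, which encodes the anti-apoptotic BCL-XL, were lower in SLIT2+APAP, and the other 7 genes were not called. Calls are at an edgeR adjusted p under 0.05 over all genes. These 2 of 9 genes, both lower, stand against 13.9% of all genes called in either direction (6.28% higher and 7.63% lower). All 9 log2 fold changes were below 0, with a median of -0.95, while the median over all genes was -0.06. The 9 were chosen with earlier results of these data known, and wider lists that include them did not share this direction. The median was -0.15 over 16 BCL2 family genes, with 7 above and 9 below 0. Over 18 necroptosis genes it was -0.11, with 9 above and 9 below 0. The median of the 9 was -0.20 without APAP 3 (0.02 over all genes) and -1.42 without APAP 4 (-0.01 over all genes). Library totals in place of TMM scaling moved the median over all genes to 0.12 and turned Bax, to 0.10; the other 8 stayed below 0 there, and 60.9% of the genes called were then higher, against 45.1% with TMM scaling. The SLIT2+APAP libraries lay below the APAP libraries without overlap for 7 of the 9 genes, and 29.4% of all genes did so (28.8% lay above, 58.2% in either direction). Bbc3 and Mcl1 overlapped.

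Bak1 had 5.24 and 4.84 CPM in SLIT2+APAP livers, against 9.43 and 10 CPM in APAP livers. Both SLIT2+APAP libraries lay near the control libraries, which had 5.32 and 5.02 CPM, and both APAP libraries lay well above them. The log2 fold change of Bak1 in SLIT2+APAP against APAP was -0.95 ± 0.23 (SE), with an edgeR adjusted p of 0.03249. The call was lost in 9 of 17 alternatives, with log2 fold changes from -1 to -0.59 over the alternatives. Among them were library totals in place of TMM scaling, GC offsets, only the libraries compared and the fit without both SLIT2 libraries. So were the fits without either SLIT2+APAP library, either control library or SLIT2 2. Some of these fits called far fewer genes in all, as given in the last section. Exons of Bak1 share 437 bases with Ggnbp1 on the opposite strand, and the strand setting of the counting is not given, so reads from that stretch cannot be assigned with certainty. Ggnbp1 had 13.5 and 14 CPM in SLIT2+APAP and 14.6 and 13.9 CPM in APAP, and its log2 fold change was -0.05 ± 0.2 (SE).

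Bax, the other pore former, had 19.5 and 21.2 CPM in SLIT2+APAP, against 21.2 and 22 CPM in APAP. Its groups came within rounding of each other, and the log2 fold change was -0.09 ± 0.19 (SE, edgeR adjusted p = 0.7779). Exons of Bax share 192 bases with the protein-coding gene Gm45808 on the same strand, which was not analysed here, so reads from that stretch cannot be assigned with certainty. The ratio of Bax to Bak1 per kb, a balance chosen after the values were seen and independent of the scaling between libraries, was 5.67 and 6.69 in SLIT2+APAP, 3.44 and 3.36 in APAP, 7 and 7.02 in SLIT2, and 5.94 and 6.2 in control. The APAP ratios were thus below those of every other library.

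Among the BH3-only genes, Bbc3 had 4.87 and 3.41 CPM in SLIT2+APAP and 4.86 and 4.66 CPM in APAP, with overlapping groups (log2 fold change -0.20 ± 0.43, edgeR adjusted p = 0.7759). Bcl2l11 had 3.8 and 4.46 CPM in SLIT2+APAP, against 20.6 CPM in APAP 3 and 4.91 CPM in APAP 4. The 2 APAP libraries thus differed from each other 4.19-fold, and APAP 4 lay close to SLIT2+APAP. The log2 fold change of Bcl2l11 was -1.62 ± 0.57 (SE, edgeR adjusted p = 0.09315).

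Of the anti-apoptotic genes, Bcl2l1 had 22.5 and 24.4 CPM in SLIT2+APAP, against 78.4 CPM in APAP 3 and 37.5 CPM in APAP 4. Both APAP libraries were above all 6 other libraries, by unequal amounts. Its log2 fold change was -1.31 ± 0.35 (SE, edgeR adjusted p = 0.04419), and -1.74 to -0.68 over the alternatives. The call was lost in 11 of 18 alternatives, among them library totals, GC offsets and the fits without any single library other than APAP 4. Here too some of these fits called far fewer genes in all. Mcl1, which encodes a short-lived survival protein, had 78.5 and 71.9 CPM in SLIT2+APAP, against 202 CPM in APAP 3 and 74.6 CPM in APAP 4. Here APAP 4 lay between the SLIT2+APAP libraries, and the log2 fold change was -0.88 ± 0.42 (SE, edgeR adjusted p = 0.1849) with both APAP libraries and 0.01 without APAP 3.

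The necroptosis genes were also split between the APAP libraries. Ripk1 had 11.8 CPM in both SLIT2+APAP libraries, against 51.3 CPM in APAP 3 and 15.3 CPM in APAP 4 (a log2 fold change of -1.50 ± 0.47, edgeR adjusted p = 0.07103). Ripk3 was measured from few reads, 38 and 57 in SLIT2+APAP (0.476 and 0.583 CPM), against 217 in APAP 3 (2.71 CPM) and 62 in APAP 4 (0.602 CPM). APAP 3 alone stood out, and the log2 fold change was -1.62 ± 0.72 (SE, edgeR adjusted p = 0.166). Mlkl, the membrane-rupturing executor, had 2.92 and 3.48 CPM in SLIT2+APAP, against 5.58 CPM in APAP 3 and 3.67 CPM in APAP 4 (a log2 fold change of -0.53 ± 0.32, edgeR adjusted p = 0.2848). Exons of Ripk1 share 241 bases with Serpinb6a on the opposite strand and 511 bases with the pseudogene Gm17084 on the same strand, which held at most 407 and 123 counts in a library, against 4114 counts of Ripk1 in APAP 3.

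**Figure D2:**
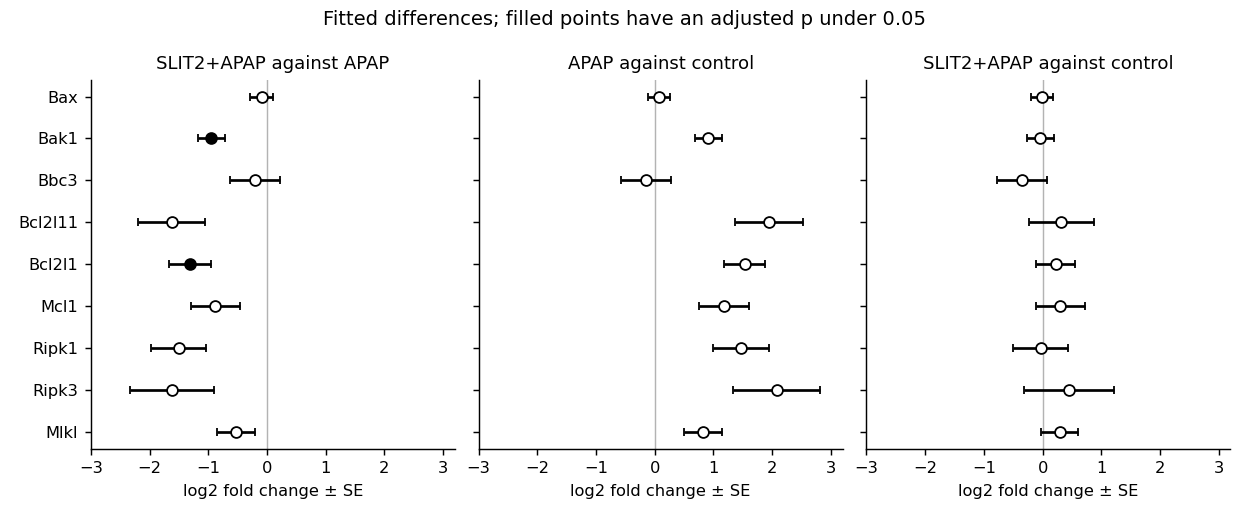
Fitted log2 fold changes of the 9 regulators with their standard errors in 3 comparisons, from 8 libraries; filled points have an edgeR adjusted p under 0.05. All 9 points lie below 0 in SLIT2+APAP against APAP, where Bak1 and Bcl2l1 are filled, 8 of 9 lie above 0 in APAP against control, and the points of SLIT2+APAP against control lie between -0.35 and 0.45. The first 2 panels share the APAP libraries.

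Most of these differences were larger with APAP 3 than with APAP 4. The level in APAP 3 was more than 2-fold that of APAP 4 for 5 of the 9 genes (Bcl2l1, Bcl2l11, Mcl1, Ripk1 and Ripk3), as for 17.6% of all genes, and none of the 9 was more than 2-fold higher in APAP 4, as 12% of all genes were. Without APAP 4, 6 of the 9 genes were called as lower in SLIT2+APAP (Bak1, Bcl2l1, Bcl2l11, Mcl1, Ripk1 and Ripk3), in a fit that called 19.5% of all genes as lower. Without APAP 3 only Bak1 was, beside 10.6% of all genes. Bak1 and Bbc3, together with Bax, differed by at most 1.06-fold between the APAP libraries. Cell type markers also differed between these libraries. The 11 macrophage markers, none of them at 0 in either group, summed to 60.8 and 57.9 CPM in SLIT2+APAP, against 98.1 CPM in APAP 3 and 60.1 CPM in APAP 4. The 10 endothelial markers, also none at 0, summed to 87.2 and 105 CPM in SLIT2+APAP, against 171 CPM in APAP 3 and 66.3 CPM in APAP 4. The 11 neutrophil markers summed to 8.13 and 9.77 CPM in SLIT2+APAP, where Ly6g and Ngp were at 0, against 23.3 CPM in APAP 3, where Camp was at 0, and 9.12 CPM in APAP 4. The neutrophil and macrophage sums hold markers of both directions. Mpo, Cxcr2 and Trem2 were called as higher in SLIT2+APAP than in APAP, and S100a9 and Cd68 as lower, beside 13.9% of all genes. No endothelial marker was called. Their part in the differences was not tested, and in bulk tissue fewer cells of a type and less RNA per cell cannot be told apart.

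**Figure D3:**
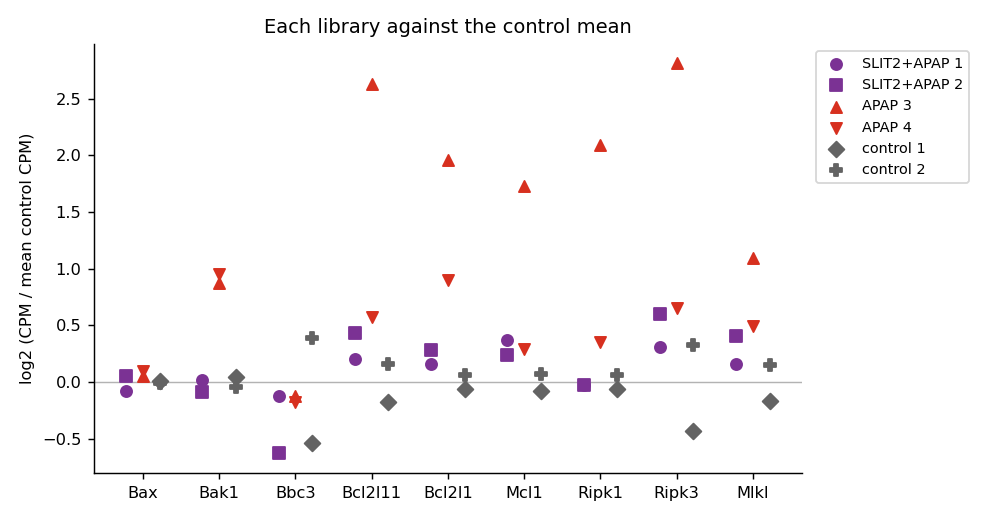
Log2 ratio of each library's CPM to the mean of the 2 control libraries for the 9 regulators. The SLIT2 libraries are not drawn, since Ripk3 has 0 counts there. APAP 3 (upward triangles) reaches 2.63 for Bcl2l11 and 2.09 for Ripk1, where APAP 4 (downward triangles) lies at 0.57 and 0.35; for Bak1 the 2 libraries lie at 0.87 and 0.95.

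The comparison of APAP with control addresses the toxic dose by itself. No gene of the 9 was called, whether higher or lower, while 0.788% of all genes were called (0.332% higher and 0.456% lower); 7 of the 9 had an unadjusted edgeR p under 0.05, as did 24.6% of all genes. DESeq2 called 4 as higher (Bak1, Bcl2l1, Bcl2l11 and Ripk1), and 6.46% of all genes. The median log2 fold change of the 9 was 1.18, against 0.05 over all genes, and 8 of 9 were above 0. That median was 0.49 without APAP 3 and 1.73 without APAP 4, with a median over all genes of 0 in both fits. The wider pathway lists, which include the 9, did not share this shift. The median was 0.07 over 16 BCL2 family genes, with 9 above and 7 below 0. Over 18 necroptosis genes it was 0.02, with 10 above and 7 below 0 after rounding. Of all genes called, 42.1% were higher, and 61.3% under library totals. The APAP libraries lay above the control libraries without overlap for 8 of the 9 genes, as for 26.9% of all genes (26.1% lay below, 53% in either direction); Bbc3 overlapped. This comparison and the one above share the APAP libraries.

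Bcl2l1 came nearest to the threshold, with 78.4 and 37.5 CPM in APAP, against 19.3 and 20.9 CPM in control. Its log2 fold change was 1.53 ± 0.35 (SE, edgeR adjusted p = 0.07083). Bak1 followed with 9.43 and 10 CPM in APAP and 5.32 and 5.02 CPM in control, 0.91 ± 0.23 on the log2 scale (SE, edgeR adjusted p = 0.07924). The APAP libraries agreed closely for Bak1 and not for Bcl2l1. Bcl2l11 had 20.6 and 4.91 CPM in APAP, against 2.92 and 3.7 CPM in control (a log2 fold change of 1.94 ± 0.58, edgeR adjusted p = 0.1052).

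The necroptosis genes had a similar split. Ripk1 had 51.3 and 15.3 CPM in APAP, against 11.5 and 12.5 CPM in control (a log2 fold change of 1.47 ± 0.47, edgeR adjusted p = 0.1203). Ripk3 had 2.71 and 0.602 CPM in APAP, against 0.286 and 0.484 CPM in control, from 24 and 46 control reads (log2 fold change 2.08 ± 0.74, edgeR adjusted p = 0.152). In APAP 4 these genes were 1.27-fold (Ripk1) and 1.57-fold (Ripk3) the control mean, above both control libraries. Mlkl had 5.58 and 3.67 CPM in APAP and 2.32 and 2.9 CPM in control (a log2 fold change of 0.82 ± 0.32, edgeR adjusted p = 0.1704).

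For Mcl1 the log2 fold change was 1.18 ± 0.42 (SE, edgeR adjusted p = 0.144), from 202 and 74.6 CPM in APAP and 57.7 and 64.1 CPM in control. Bax and Bbc3 had log2 fold changes of 0.07 ± 0.19 and -0.15 ± 0.43 (SE, edgeR adjusted p = 0.835 and 0.8557). These differences depended on which APAP library was kept. The median log2 fold change of the 9 was 1.73 without APAP 4 and 0.49 without APAP 3, as given above. The skeletal muscle signal of the control libraries, given above, lay on the control side of this comparison, and its part was not tested; the 9 genes differed by at most 1.27-fold between the 2 control libraries, apart from Bbc3 at 1.91-fold and Ripk3 at 1.69-fold, while the muscle sum was 845 CPM in control 1 and 92.3 CPM in control 2.

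SLIT2+APAP against control sets the pretreated, injured livers beside uninjured ones. None of the 9 genes was called, whether higher or lower, by edgeR or DESeq2, and none had an unadjusted edgeR p under 0.05. Over all genes, edgeR called 2.14% (0.693% higher and 1.45% lower), DESeq2 called 9.71%, and 20.4% had an unadjusted edgeR p under 0.05. The median log2 fold change of the 9 was 0.22, against 0.04 over all genes, with 5 above and 4 below 0; it was 0.13 without control 1 and 0.52 under library totals. The differences ran from -0.35 ± 0.43 (Bbc3) to 0.45 ± 0.77 (Ripk3), so that for Ripk3 a change in either direction lies within 1 SE. The smallest errors were those of Bax at -0.01 ± 0.19 and Bak1 at -0.04 ± 0.23 (SE). The directions of Bax, Bak1 and Ripk1 turned under library totals, to 0.29, 0.27 and 0.27, a setting that moved the median of all genes to 0.34 and the share of called genes that were higher to 68.5%, against 32.4% with TMM scaling. The groups did not overlap for Bcl2l1, Bcl2l11, Mcl1 and Mlkl, all higher in SLIT2+APAP, as for 35.2% of all genes (32.3% lower, 67.5% in either direction).

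SLIT2 against control asks what SLIT2 did without injury, in libraries that differ from the others in their mitochondrial share. Bax, Bak1 and Ripk3 were lower in SLIT2, and none of the 9 was called as higher. These 3 of 9 genes stand against 54.9% of all genes called in either direction (27.3% higher and 27.6% lower). The median log2 fold change of the 9 was -0.59, against 0 over all genes, and 8 of 9 were below 0. It was -0.31 without control 2, -0.33 without SLIT2 1 and 0.06 over the 4 members left with at least 10 CPM.

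Bax had 14.1 and 12.6 CPM in SLIT2, against 20.7 and 20.4 CPM in control (a log2 fold change of -0.62 ± 0.19, edgeR adjusted p = 0.02218). Bak1 had 3.07 and 2.73 CPM in SLIT2, against 5.32 and 5.02 CPM in control (a log2 fold change of -0.83 ± 0.23, edgeR adjusted p = 0.01611). The SLIT2 libraries were the lowest 2 of the 8 for both pore formers. Over the alternatives the log2 fold change ran from -0.73 to -0.09 for Bax and from -0.92 to -0.67 for Bak1. Bax was not called with at least 10 CPM, a fit whose calls over all genes are given in the last section. Under library totals or without control 1 only Ripk3 was called, and without SLIT2 2 or without control 2 none of the 9 was. These fits called 23.8% (library totals), 20% (without control 1), 19.3% (without SLIT2 2) and 21.1% (without control 2) of all genes as lower. Ripk3 was not called without SLIT2 1, a fit that called 23.1% of all genes as lower. Bax was not called without either SLIT2+APAP library. All 3 genes were called when the mitochondrially encoded genes were left out, a fit whose share of all genes called is not given. Leaving those genes out moved the median over all genes only from 0 to -0.04. It therefore cannot tell whether the mitochondrial share of the SLIT2 libraries bears on these calls.

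Ripk3 had 0 counts in both SLIT2 libraries, while it had 38 and 57 counts in SLIT2+APAP, 217 and 62 in APAP and 24 and 46 in control. Set against a floor of 3 counts in the SLIT2 group as a whole (0.0244 CPM), which covers counting error only, Ripk3 was at least 16-fold lower in SLIT2 than in control, at least 62.5-fold lower than in APAP (at least 24.7-fold against APAP 4 alone) and at least 21.9-fold lower than in SLIT2+APAP (edgeR adjusted p = 0.01963 against control). A complete absence of counts was not confined to Ripk3. Of 1474 genes within 1.5-fold of its control level, Ripk3 included, 38 (2.58%) had 0 counts in both SLIT2 libraries. Hepatocyte markers summed to 18400 and 10100 CPM in SLIT2, against 71400 and 94600 CPM in control, and Kupffer cell markers to 39.7 and 46 CPM, against 113 and 147 CPM. Neutrophil markers summed to 37.6 and 33.8 CPM in SLIT2, with 5 of 11 at 0 (Ly6g, Elane, Ngp, Camp and Ltf), against 3.66 and 4.67 CPM in control, with 1 and 4 at 0. Cxcr2 alone gave 26.8 and 26.3 CPM of the SLIT2 sums. S100a8 and S100a9 in SLIT2 2, at 0.507 and 0.398 CPM, lay below both control libraries. Mpo, Csf3r and Cxcr2 were called as higher and no neutrophil marker as lower, beside 27.3% of all genes called as higher. Lymphocyte markers summed to 13.1 and 12.1 CPM in SLIT2, against 3.64 and 3.96 CPM in control. Macrophage markers overlapped as a sum, at 54.4 and 71 CPM in SLIT2 and 60.5 and 73 CPM in control. Of these 11 macrophage markers, 3 were called as higher (Cx3cr1, Trem2 and Gpnmb). Another 4 were called as lower (Adgre1, Csf1r, Ly6c2 and Lyz2), beside 54.9% of all genes called in either direction. The part of these cell type markers in the 3 differences was not tested.

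The other 6 genes were not called in this comparison. Mcl1 had 47.2 and 33.5 CPM in SLIT2, against 57.7 and 64.1 CPM in control (a log2 fold change of -0.59 ± 0.42, edgeR adjusted p = 0.257), with no overlap between the groups. Mcl1 was called as lower in 3 of 18 alternatives, the fits without APAP 3, without APAP 4 and to the 4 libraries compared, the last of which called 30.9% of all genes as lower. Bcl2l1 had 26.5 and 18.6 CPM in SLIT2 and 19.3 and 20.9 CPM in control, with control inside the range of SLIT2. Over the 9 genes 5 did not overlap, all lower in SLIT2 (Bax, Bak1, Mcl1, Ripk1 and Ripk3), as for 41.4% of all genes (41.2% higher, 82.6% in either direction).

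The interaction compares the difference that SLIT2 made with APAP with the difference it made without APAP. No gene of the 9 was called by edgeR, while 28.8% of all genes were (15.5% higher and 13.4% lower). Only Bcl2l1 had an unadjusted edgeR p under 0.05, as did 43.5% of all genes, with -1.47 ± 0.49 on the log2 scale (SE, edgeR adjusted p = 0.055). DESeq2 called Bcl2l1 as lower and Ripk3 as higher, and 33% of all genes in either direction. Ripk3 had 0 counts in both SLIT2 libraries, so the size of its interaction rests on how a fit treats 0 counts and is not given. The interaction of Bak1 was -0.11 ± 0.32 (SE, edgeR adjusted p = 0.8091), and Bak1 had log2 fold changes of -0.95 with SLIT2 in the presence of APAP and -0.83 in its absence. Without APAP 4, 4 of the 9 were called (Bcl2l1, Bcl2l11 and Ripk1 as lower, Ripk3 as higher), beside 49.2% of all genes in either direction. Without APAP 3 Ripk3 alone was called, as higher, beside 33.9% of all genes.

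Balances within a library do not depend on the scaling between libraries and are given as descriptions, since the smallest two-sided p of an exact permutation test of 2 libraries against 2 is 0.33. The summed level per kb of the anti-apoptotic genes Bcl2l1 and Mcl1 over that of the pore formers Bax and Bak1 was 1.92 and 1.71 in SLIT2+APAP, 4.38 and 1.66 in APAP, 1.92 and 1.52 in SLIT2, and 1.38 and 1.55 in control. APAP 3 stood above the 7 other libraries, and APAP 4 lay below both SLIT2+APAP libraries. The 6 BCL2 family genes over the 3 necroptosis genes gave 15.6 and 13.9 in SLIT2+APAP, 10.1 and 13.8 in APAP, 16.6 and 10.9 in SLIT2, and 15.3 and 14.2 in control. Both APAP libraries were below both SLIT2+APAP libraries in that ratio. Mlkl over Ripk3 was 6.1 and 5.94 in SLIT2+APAP, 2.05 and 6.07 in APAP, and 8.09 and 5.97 in control, so that Ripk3 was nearest to Mlkl in APAP 3.

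**Figure D4:**
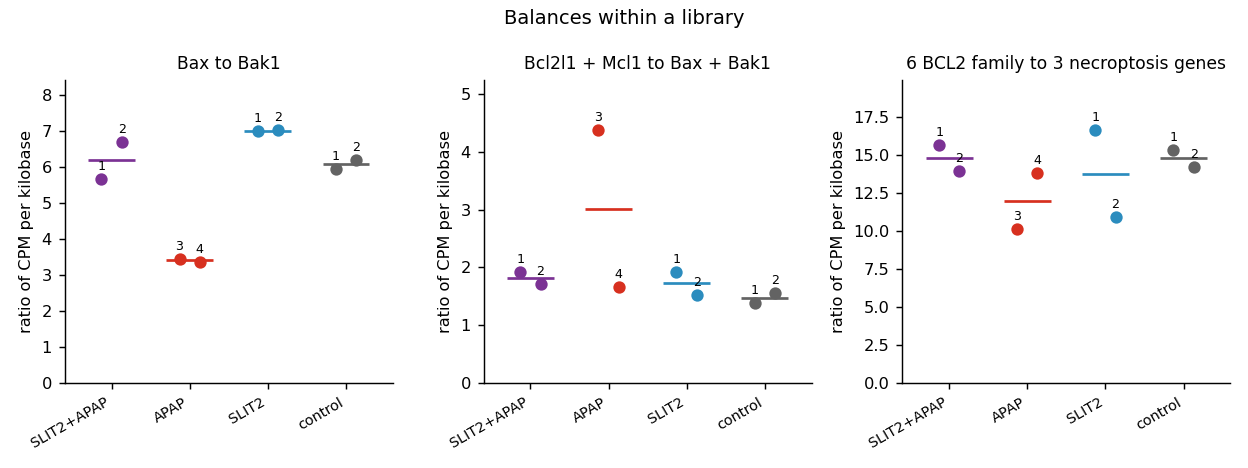
Ratios of levels per kb within each library. The left panel gives Bax over Bak1, the middle one the sum of Bcl2l1 and Mcl1 over the sum of Bax and Bak1, and the right one the 6 BCL2 family genes over the 3 necroptosis genes; points are libraries with their label numbers and bars are means of 2 libraries. Bax over Bak1 is lowest in both APAP libraries (3.44 and 3.36), whereas the middle ratio is high in APAP 3 only (4.38, against 1.66 in APAP 4).

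Likeness of pattern was measured as the root mean square difference of log2 CPM, each gene centred on its mean over the 8 libraries, among 11246 genes of at least 1 CPM. Bcl2l11 was nearest to Ripk1 (0.19, while the median over all genes was 1.02), and no other pair of the 9 was closer. Both genes stood far highest in APAP 3, at 6.21-fold (Bcl2l11) and 4.27-fold (Ripk1) the control mean. In APAP 4 they were at 1.48-fold and 1.27-fold, so their likeness leans on 1 library. Ripk1 itself was nearest to Rlf (0.12) and Vopp1 (0.13), and Rlf was also the second gene for Bcl2l11 (0.25). Bax was nearest to Scamp2 (0.07), Bak1 to Flot2 and Sars (0.12 each), Mcl1 to Lrrc28 (0.1), Bcl2l1 to Fkbp5 (0.13) and Mlkl to Zcchc2 (0.1). Bbc3 had no gene closer than Acly (0.2). For Ripk3, with 0 counts in both SLIT2 libraries, the measure rests on the prior count of 2 added before taking logs, and no neighbour is given.

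Genes of the same pathways were read from lists that include the 9, beside the 13.9% of all genes called in SLIT2+APAP against APAP. Of 16 measured BCL2 family genes, 2 were called, both of them among the 9. Of 18 necroptosis genes, Ticam1, the adaptor that links TLR3 and TLR4 to RIPK1, was lower. Of 8 death receptor and ligand genes, the TNF receptor gene Tnfrsf1a and the TWEAK receptor gene Tnfrsf12a were lower. Of 9 pyroptosis genes, the cytokine gene Il18 was higher. These are small counts on either side of that share. The medians of these 4 lists lay between -0.44 and 0.32, against -0.06 over all genes.

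Tnfrsf1a, whose product recruits RIPK1, had 39.3 and 35.5 CPM in SLIT2+APAP, against 117 and 65.5 CPM in APAP (a log2 fold change of -1.29 ± 0.28, edgeR adjusted p = 0.02515). Tnfrsf12a had 7.18 and 8.78 CPM in SLIT2+APAP, against 123 CPM in APAP 3 and 21.4 CPM in APAP 4 (a log2 fold change of -3.17 ± 0.69, edgeR adjusted p = 0.02518). For both receptor genes SLIT2+APAP lay near control, at 33.8 and 37.5 CPM for Tnfrsf1a and 8.2 and 7.22 CPM for Tnfrsf12a. In SLIT2 alone Tnfrsf1a had 10.8 and 10.9 CPM, below every other library. Ticam1 had 4.48 and 6.11 CPM in SLIT2+APAP, against 15.7 and 10.3 CPM in APAP (a log2 fold change of -1.30 ± 0.30, edgeR adjusted p = 0.02968). Il18 had 0.701 and 0.962 CPM in SLIT2+APAP, against 0.15 and 0.0486 CPM in APAP (a log2 fold change of 3.12 ± 0.62, edgeR adjusted p = 0.01957), from 12 and 5 reads in the APAP libraries. Each of these 4 calls was lost in the fit to the 4 libraries compared and in the fits without either SLIT2+APAP library. The fit to the 4 libraries compared called hardly any gene at all, as given in the last section. A call lost there is therefore not particular to these genes. The calls of Tnfrsf1a, Ticam1 and Tnfrsf12a were also lost without either control library. Those of Ticam1 and Tnfrsf12a were lost without either or both SLIT2 libraries, those of Ticam1 and Tnfrsf1a with GC offsets, and that of Ticam1 under library totals.

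**Figure D5:**
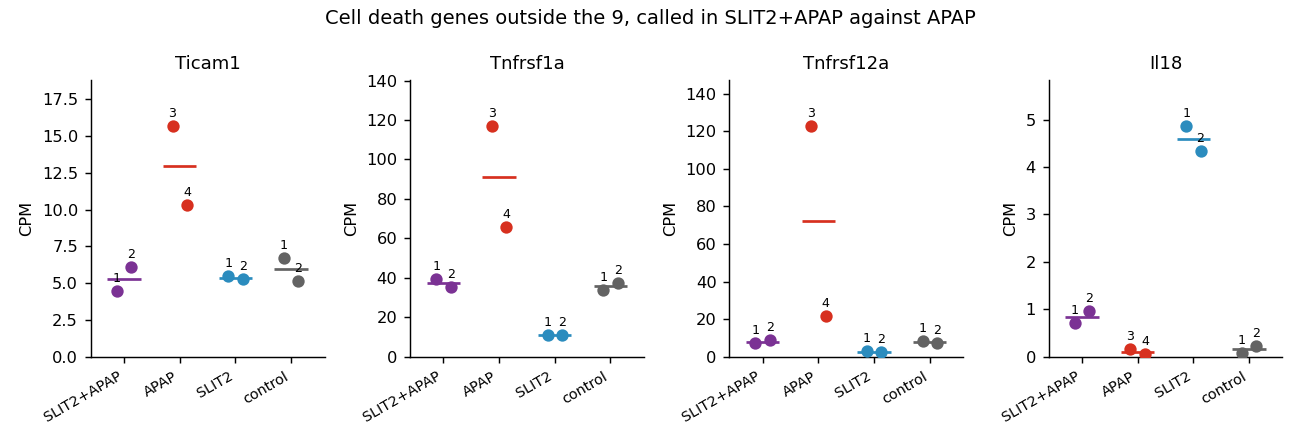
Abundance (CPM, linear axes from 0) of 4 cell death genes outside the 9, all called in SLIT2+APAP against APAP. Points are libraries with their label numbers and bars are means of 2 libraries. Ticam1, Tnfrsf1a and Tnfrsf12a are lower in both SLIT2+APAP libraries than in both APAP libraries, Il18 is higher, and Tnfrsf12a spans 21.4 to 123 CPM within APAP.

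In SLIT2 against control the 5 lists held calls in both directions, beside 54.9% of all genes. Among BCL2 family genes, the BH3-only genes Hrk and Pmaip1 and the anti-apoptotic Bcl2 were higher in SLIT2, and Bad and Bok were lower with Bax and Bak1. Hrk had 2.88 and 2.01 CPM in SLIT2, against 0.191 and 0.0946 CPM in control (a log2 fold change of 4.11 ± 0.49, edgeR adjusted p = 0.0003445), and Pmaip1 3.98 and 4.2 CPM, against 0.512 and 0.631 CPM (log2 fold change 2.83 ± 0.63, edgeR adjusted p = 0.006352; 0.05138 without control 1). Of the 18 necroptosis genes 3 were higher and 5 lower, Ripk3 among them. Pgam5, a mitochondrial phosphatase gene, had 2.76 and 2.25 CPM in SLIT2, against 14.2 and 14.5 CPM in control (a log2 fold change of -2.52 ± 0.24, edgeR adjusted p = 0.0001484). Of 13 apoptosome and caspase genes 7 were lower and 1 higher, and Endog, which encodes a mitochondrial nuclease, had 9.13 and 4.47 CPM in SLIT2, against 34 and 40.1 CPM in control (a log2 fold change of -2.44 ± 0.33, edgeR adjusted p = 0.0006004). Casp8, whose product restrains RIPK1 and RIPK3 by cleavage, had 16.1 and 11.8 CPM in SLIT2, against 27.4 and 21.4 CPM in control (a log2 fold change of -0.80 ± 0.23, edgeR adjusted p = 0.01938), a call lost under library totals, with at least 10 CPM, without control 1 and without SLIT2 2. The call of Bcl2 was lost without either control library and without SLIT2 2, and that of Bad without either SLIT2 library.

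Of the 8 death receptor and ligand genes, 3 were lower in SLIT2 (Fas, Tnfrsf1a and Ltbr) and Tnfrsf10b, which encodes the mouse TRAIL receptor, was higher. Tnfrsf1a, at 10.8 and 10.9 CPM in SLIT2, against 33.8 and 37.5 CPM in control, had a log2 fold change of -1.71 ± 0.29 (SE, edgeR adjusted p = 0.001579). The call of Ltbr was lost with at least 10 CPM, without control 2 and without SLIT2 2. Of the 9 pyroptosis genes, Casp1, Casp4 and Il18 were higher and Gsdme and Ninj1 lower. The call of Casp1 was lost without either control library, either SLIT2 library or either SLIT2+APAP library. Its log2 fold change ran from 1.31 to 2.14 over the alternatives. Il18 had 4.87 and 4.33 CPM in SLIT2, against 0.0715 and 0.231 CPM in control (a log2 fold change of 4.88 ± 0.57, edgeR adjusted p = 0.0003375). Tnfrsf1a was thus lower and Il18 higher with SLIT2 both with and without APAP.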

How the data were processed

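The deposited table holds raw counts per gene in a column for each library. The submitters' processing notes list STAR (2.5.4), Cufflinks and Cuffdiff (2.2.1) with the build mm10 but no role for any of them, and the labels' protocol names a strand-specific MGIEasy kit. How reads were counted, on which strand and with what treatment of multiple hits is not given in the sources used here. Very large counts look rounded, since 72 of the 93 values from 1000000 upward end in 0. Symbols, exon lengths and GC content came from GENCODE M21 on GRCm38 (22329 identifiers, 97.1%).

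The members and lists were chosen with earlier results of these data known. Counts were filtered by filterByExpr over the 4 groups and scaled by TMM, and all 8 libraries entered 1 quasi-likelihood fit with a mean for each group in edgeR 4.0.16 (R 4.3.3, robust, legacy = FALSE, 4 residual degrees of freedom). A gene was called where its p, adjusted by Benjamini-Hochberg over 16876 genes, was under 0.05, and the fits were tested on simulated data. CPM used the TMM-scaled library sizes, and CPM per kb divided them by the exon union. Totals were 60.8 to 100.5 M, and 1 count was worth 0.00971 to 0.0181 CPM. The floor of counts set for Ripk3 covers counting error only.

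Named besides the 9 genes were, per pathway list and comparison, up to 4 called genes with the smallest p, and per member except Ripk3 up to 2 genes of nearest pattern; genes overlapping a member and the ratio of Bax to Bak1 were added after the values were seen, and other listed genes are named only where they make up a count. 1 gene of the lists is not reported here and was left out of the list counts, not of the fits. Alternatives were DESeq2 1.42.0, its size factors in edgeR, library totals, no mitochondrially encoded genes, GC offsets, 2 other count filters, the legacy fit, fewer libraries and each library left out. Same-numbered libraries did not deviate together (correlation of deviations 0.07 for SLIT2 and control, -0.07 for SLIT2+APAP and control), so numbers were not taken as pairs. Upstream windows came from RefSeq on GRCm38.p6. Figures were drawn with matplotlib 3.10.9.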

Additional observations from a re-analysis of the deposited data

How the results depend on the processing

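Of the 9 genes, 2 were called in SLIT2+APAP against APAP: 0 with library totals, 0 with GC offsets, 1 with at least 10 CPM in 2 libraries (4 of the genes tested), 4 with DESeq2, 0 with only the libraries compared, 0 without the SLIT2 libraries, and 0 to 6 when each library was left out in turn. In APAP against control 0 were called, 4 with DESeq2 and 0 to 7 with a library left out. In SLIT2 against control 3 were called, 1 with library totals, 0 with at least 10 CPM, 4 with only the libraries compared (Mcl1 added) and 0 to 4 with a library left out. In the interaction of SLIT2 and APAP 0 were called, 1 with at least 10 CPM, 2 with DESeq2 and 0 to 4 with a library left out. In SLIT2+APAP against control 0 were called under every alternative run. For SLIT2+APAP against APAP, the calls over all genes with library totals, GC offsets and at least 10 CPM are not listed below. The counts of the 9 under those settings therefore have no share to stand beside. The same holds for at least 10 CPM in the interaction. Over all genes, SLIT2+APAP against APAP had 2348 calls, 3532 with DESeq2, 1 with only the libraries compared, 1558 without the SLIT2 libraries and 20 to 6015 with a library left out. APAP against control had 133, with 235 under library totals, 72 under GC offsets, 205 without a filter, 1836 with DESeq2, 54 in the legacy fit, 0 with only the libraries compared, 0 without the SLIT2 libraries and 0 to 5066 with a library left out. SLIT2+APAP against control had 361, with 1455 under DESeq2, 4065 with only the libraries compared, 3 without the SLIT2 libraries and 2 to 2570 with a library left out. SLIT2 against control had 9266, with 4645 at 10 CPM (7393 genes tested) and 6271 to 11273 with a library left out. The interaction of SLIT2 and APAP had 4867, and 974 to 8311 with a library left out. With the replicate number as a block, which is no pairing in this design, 3449 genes were called in SLIT2+APAP against control (0 of the 9) and 10426 in SLIT2 against control (4 of the 9, Bbc3 added); the APAP libraries share no number with the others. Directions turned only for differences that were not called; ranges are over the libraries left out in turn. In SLIT2+APAP against APAP, Bax went to 0.10 under library totals and 0.06 under GC offsets, and ranges were -1.42 to 0.01 (Mcl1, turned without APAP 3) and -0.48 to 0.03 (Bbc3, turned without SLIT2+APAP 2). In APAP against control, Bax went to -0.19 under GC offsets, and Bbc3 ranged from -0.54 to 0.38 (turned without control 2). In SLIT2+APAP against control, Bax, Bak1 and Ripk1 went to 0.29, 0.27 and 0.27 under library totals and to 0.04, 0.02 and 0.03 without the SLIT2 libraries, and with at least 10 CPM Bax went to 0.06 and Ripk1 to 0.04. Ranges there were -0.08 to 0.05 (Bax), -0.10 to 0.02 (Bak1), -0.74 to 0.16 (Bbc3) and -0.09 to 0.03 (Ripk1). In SLIT2 against control, Ripk1 went to 0.18 with at least 10 CPM, and Bcl2l1 ranged from -0.12 to 0.48. In the interaction of SLIT2 and APAP, Bak1 went to 0.25 under GC offsets, and ranges were -0.83 to 0.61 (Mcl1) and -0.59 to 0.01 (Mlkl), both turned without APAP 3. The causes were not tested. A library left alone in its group was taken to vary as the remaining groups do. Ripk3, with 24 to 62 reads in most libraries, has the widest errors of the 9.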
